A study of Bos taurus with 8 samples.

Results

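The genes described here are 9 targets of p53 and regulators of apoptosis (MDM2, CDKN1A, GADD45A, SESN1, BAX, BBC3, BCL2, BCL2L1 and MCL1), taken by name from the raw count table of bovine embryonic stem cells (bESCs). All 9 were present among the 32637 genes with values, and all 9 passed the filter on low counts that left 15744 genes for testing. RNA had been sequenced from 4 lines of bESCs (A, C, D and E), which the labels give as XX. Each line was cultured in 5% O2 first on MEF (irradiated CF1 mouse embryonic fibroblasts, a feeder layer) and later without feeders on vitronectin, an adhesive matrix protein, so that there were 4 libraries per condition. The lines had been derived on MEF in high oxygen from whole blastocysts produced in vitro, and were maintained in NBFR medium with FGF2 and the WNT inhibitor IWR-1. bESCs on MEF were taken at passage 15 to 17 and feeder-free bESCs at passage 20 to 22, so feeder cells, matrix and passage changed together and cannot be told apart. The methods describe Activin A as an addition to feeder-free culture, whereas the sample titles carry one medium code for all libraries. Each value is 1 culture of 1 line in 1 condition, and the lines are the biological replicates.

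p53 is a transcription factor that is held at a low level by MDM2, a ubiquitin ligase whose own gene p53 activates. After DNA damage or other stress the stabilised factor raises genes that stop the cell cycle, such as CDKN1A and GADD45A, genes of stress metabolism, such as SESN1, and genes that promote death, such as BAX and BBC3. Apoptosis through mitochondria is set by the BCL2 family: BCL2, BCL2L1 and MCL1 protect the outer mitochondrial membrane, BAX and BAK1 open it and release cytochrome c, and the BH3-only proteins, BBC3 among them, antagonise the protectors. Pluripotent stem cells are known for their readiness to undergo apoptosis, and cell death is a common problem when they are moved off feeders.

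Total counts were 44268717 to 54296425 per library on MEF and 49671478 to 102351560 in feeder-free conditions, the highest being that of line D. The pluripotency markers summed to 5466 to 6067 CPM (counts per 1000000 after TMM scaling) on MEF and 4698 to 5335 CPM in feeder-free conditions. The sum was lower without feeders in every line, and the ranges did not overlap. POU5F1, SOX2 and NANOG were abundant in all libraries. CDX2 and AFP, markers of trophoblast and endoderm, had counts of 0 in all 8 libraries, but other genes of these lists were detected. KRT7 of the trophoblast list had a mean of 24.3 CPM on MEF and 68.4 CPM in feeder-free conditions. GATA2 of the same list was lower without feeders, at means of 1.125 and 0.42 CPM. For APOA1 of the endoderm list the means were 63.8 and 184.6 CPM. The fibroblast list summed to 548.6 to 662.1 CPM on MEF and 320.8 to 1412 CPM in feeder-free conditions, so it was not lower by range after the feeders were removed.

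CDKN1A and GADD45A had the largest differences among the 9 genes, both toward higher levels in feeder-free bESCs, with fold changes of 2.66 and 1.82. SESN1 was the only member with a log2 fold change below 0, and it was lower in 4 of 4 lines. MDM2, BAX, BBC3, BCL2 and MCL1 had smaller differences, of 0.12 to 0.35 in log2 fold change (log2FC), with unadjusted P-values of 0.208 to 0.731 from edgeR's test. A gene was called where its adjusted P-value was under 0.05 and its fold change at least 1.5. By this rule edgeR's quasi-likelihood test without the pairing called 0 of the 9 genes, where 1.73 percent of all tested genes were called. At an unadjusted P-value under 0.05, 3 of the 9 (CDKN1A, GADD45A and BCL2L1) were higher, against 21.6 percent of all tested genes in either direction. DESeq2 called CDKN1A and GADD45A, and neither edgeR's likelihood ratio test nor limma-voom called any member. Of all 15744 tested genes, DESeq2 called 1211, the likelihood ratio test 837 and limma-voom 229, against 272 in the unpaired quasi-likelihood test. With line as a term, which compares the conditions within each line (replicate block), edgeR called CDKN1A and GADD45A as upregulated and none as downregulated. In that paired fit 5.52 percent of all tested genes were called higher and 4.53 percent lower. The median log2FC of the 9 genes was 0.19, beside 0.01 for all tested genes.

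**Figure D1:**
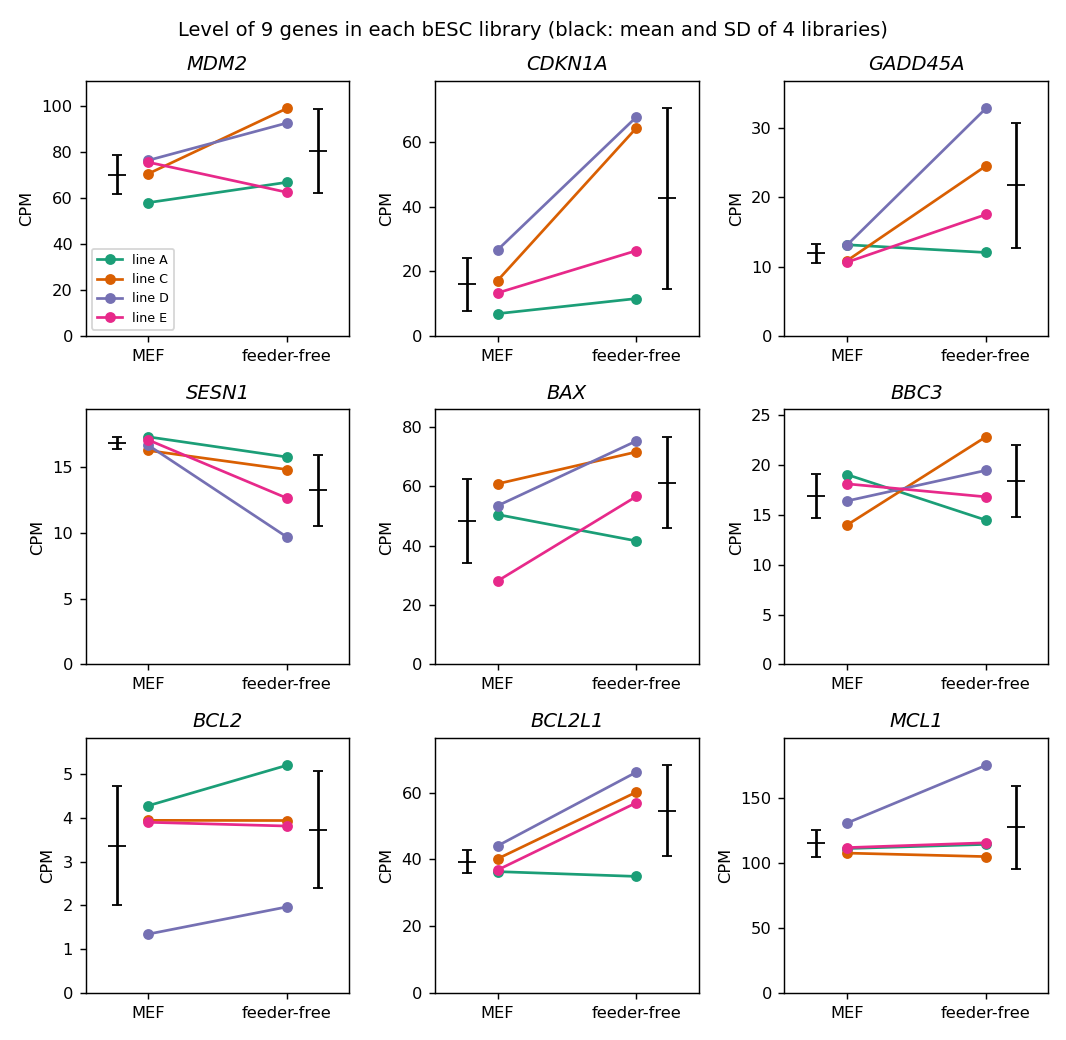
Level of each of the 9 genes in CPM (linear axis from 0) on MEF and in feeder-free conditions, with 1 point per library, points of a line joined, and the mean and SD of 4 libraries in black. CDKN1A stood higher without feeders in 4 of 4 lines and SESN1 was lower in 4 of 4, while for GADD45A and BCL2L1 line A alone did not follow the others.

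CDKN1A encodes p21, an inhibitor of cyclin-dependent kinases and the classical arrest target of p53. The gene spans 10573389 to 10590591 of chromosome 23 in the ARS-UCD2.0 assembly, which is used for all positions here. On MEF it was at 6.91 CPM in line A, 17.2 in line C, 26.7 in line D and 13.3 in line E. In feeder-free conditions it was at 11.6 CPM in line A, 64.5 in line C, 67.9 in line D and 26.5 in line E. The ranges overlapped: line A without feeders stayed below lines C, D and E on MEF, and line E without feeders just below line D on MEF. Yet each line was higher than itself on MEF. The mean was 16.0 ± 8.26 CPM (SD, n = 4 lines) on MEF and 42.6 ± 27.9 CPM (SD, n = 4 lines) in feeder-free conditions. The log2FC was 1.41 (SE 0.56, edgeR adjusted p = 0.185). Of all tested genes, 3.47 percent had a larger absolute change and 17.3 percent a smaller P-value in that test. In the paired fit the log2FC of CDKN1A was 1.26 (SE 0.18, paired edgeR adjusted p = 0.00343). Over the 16 alternatives computed for it, the adjusted p ranged from 0.00343 to 0.391, and the log2FC was above 0 in all 16. The call in the paired fit held without any one line, with adjusted p of 0.00393 to 0.0172 from the same edgeR test.

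In the feeder-free libraries, the fibroblast list ran in the same order of lines as CDKN1A, with sums of 320.8 CPM in line A, 446.1 in line E, 995.7 in line C and 1412 in line D. On MEF the order differed from that of CDKN1A, at 548.6 CPM in line A, 578.1 in E, 606.8 in D and 662.1 in C. COL1A1, a collagen chain, made up most of each sum except that of line A in feeder-free conditions. Without COL1A1 the other 19 genes summed to 208.1 to 279.5 CPM on MEF and 162.7 to 398.5 CPM in feeder-free conditions. Their feeder-free sums did not follow the order of CDKN1A, at 162.7 CPM in line E, 205.8 in A, 378.6 in D and 398.5 in C. FAP and TWIST2 were at 0 in all 4 feeder-free libraries, but had at most 6 and 32 counts per library on MEF. Other genes of the list differed in both directions. Mean CPM on MEF and without feeders was 19.0 and 42.3 for LUM and 0.77 and 4.69 for COL3A1. It was 2.71 and 0.16 for COL1A2 and 1.84 and 0.18 for PRRX1. Of the 18 fibroblast genes tested, 0 were called without the pairing, and 2 were called higher and 2 lower in the paired fit. The endoderm list summed to 66.92 to 119.6 CPM on MEF and 142.6 to 250.6 CPM in feeder-free conditions. Most of this sum was APOA1, whereas GATA4, GATA6, SOX17 and AFP were at or near 0. FOXA2 and LAMA1 of the same list were detected in all 8 libraries, FOXA2 at a mean of 7.38 CPM on MEF and 3.87 CPM in feeder-free conditions, and LAMA1 at 12.7 and 12.8 CPM. The trophoblast list, of which KRT7 made up most, summed to 22.33 to 38.29 CPM and 41.61 to 113.9 CPM. Of its 5 tested genes, 0 were called without the pairing, and 1 was called higher and 1 lower in the paired fit. Whether cell makeup differed between the conditions was not tested, nor was any part of it in the level of CDKN1A. In bulk RNA more expressing cells and more RNA per cell cannot be told apart.

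GADD45A encodes a stress sensor that binds PCNA and p21 and takes part in growth arrest. It lies on chromosome 3 from 77648759 to 77651847. On MEF the 4 libraries were close together, at 13.1 CPM in line A, 10.8 in line C, 13.1 in line D and 10.6 in line E. In feeder-free conditions GADD45A was at 12.02 CPM in line A, 24.5 in line C, 32.8 in line D and 17.5 in line E. Lines C, D and E were above every MEF library, and line A lay within the MEF range. The mean was 11.9 ± 1.38 CPM (SD, n = 4 lines) on MEF and 21.7 ± 8.98 CPM (SD, n = 4 lines) in feeder-free conditions, a log2FC of 0.86 (SE 0.28, edgeR adjusted p = 0.118). The paired fit gave 0.78 (paired edgeR adjusted p = 0.0434). This call was lost without line C, D or E, at adjusted p of 0.17, 0.191 and 0.0877 from the same edgeR test.

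SESN1 encodes a sestrin, a stress-inducible protein that restrains mTORC1 signalling. It lies on chromosome 9 from 41069131 to 41183445 and spans a transfer RNA gene. On MEF it was nearly constant, at 17.3 CPM in line A, 16.3 in line C, 16.7 in line D and 17.1 in line E. In feeder-free conditions it was at 15.8 CPM in line A, 14.8 in line C, 9.70 in line D and 12.7 in line E. It was the only one of the 9 genes whose groups did not overlap, where 14.6 percent of all tested genes had no overlap. Its log2FC of -0.35 (SE 0.17, edgeR adjusted p = 0.282) did not pass, nor did that of -0.37 in the paired fit (paired edgeR adjusted p = 0.135). Of the 9 genes, CDKN1A and SESN1 differed in one direction in all 4 lines, beside 40.9 percent of all tested genes.

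MDM2, which closes the feedback loop on p53, lies on chromosome 5 from 44977671 to 45005325. It was at 58.0 CPM in line A, 70.6 in line C, 76.4 in line D and 75.7 in line E on MEF. In feeder-free conditions it was at 66.9 CPM in line A, 99.1 in line C, 92.7 in line D and 62.5 in line E. MDM2 was higher in 3 of 4 lines and lower in line E, and the groups overlapped. The log2FC was 0.19 (SE 0.17, edgeR adjusted p = 0.571). Within each library, the log2 ratio of CDKN1A counts to MDM2 counts was greater without feeders in each of 4 lines, by 0.54 in line A, 1.42 in line C, 1.07 in line D and 1.26 in line E. CDKN1A thus moved more than MDM2 in every line, a description for which no test was made.

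BAX, the effector that permeabilises the outer mitochondrial membrane, lies on chromosome 18 from 55530787 to 55534997 and overlaps TULP2. TULP2 itself had 150 to 256 counts per library against 1242 to 7710 for BAX. BAX was at 50.5 CPM in line A, 60.9 in line C, 53.5 in line D and 28.1 in line E on MEF. In feeder-free conditions it was at 41.6 CPM in line A, 71.6 in line C, 75.4 in line D and 56.7 in line E. Line E, the lowest on MEF, had the largest difference, and line A was lower without feeders. The log2FC was 0.35 (SE 0.26, edgeR adjusted p = 0.483).

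BBC3 encodes PUMA, a BH3-only protein and a principal death target of p53. It lies on chromosome 18 from 54237254 to 54247394. Its counts were 769 to 798 on MEF and 720 to 1988 in feeder-free conditions, which in CPM were 14.0 to 19.0 and 14.4 to 22.8. BBC3 was higher in lines C and D but not in A and E, with log2 ratios of -0.40 in line A and 0.71 in line C. The log2FC was 0.12 (SE 0.18, edgeR adjusted p = 0.752), and in the paired fit without line C it was -0.07. BBC3 therefore had no common direction among the lines, unlike CDKN1A, although the difference between the 2 genes was not tested.

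Among the protectors, BCL2L1, which encodes BCL-XL, differed most. BCL2L1 lies on chromosome 13 from 61220110 to 61271376 and overlaps LOC107133075, which had at most 19 counts per library. On MEF it was at 36.4 CPM in line A, 40.2 in line C, 44.1 in line D and 36.8 in line E. In feeder-free conditions it was at 34.9 CPM in line A, 60.2 in line C, 66.2 in line D and 57.0 in line E. Lines C, D and E were above every MEF library, and line A without feeders was the lowest of all 8. The log2FC was 0.47 (SE 0.19, edgeR adjusted p = 0.187) and 0.44 in the paired fit (paired edgeR adjusted p = 0.0617). When line A's feeder-free library was left out, the unpaired log2FC was 0.64 and passed (edgeR adjusted p = 0.037), together with GADD45A at 1.06 (edgeR adjusted p = 0.0447). Of all tested genes 490 were called in that fit, against 272 with all libraries. Without any other single library BCL2L1 did not pass, at edgeR adjusted p of 0.215 to 0.402. Without both libraries of line A, BCL2L1 also passed in the paired fit at 0.60 (edgeR adjusted p = 0.0188). It did not pass there without line C, D or E, at edgeR adjusted p of 0.198, 0.242 and 0.129.

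MCL1, a short-lived protector, lies on chromosome 3 from 20129373 to 20134013. It was at 107.5 to 130.6 CPM on MEF and 104.8 to 175.0 CPM in feeder-free conditions, and line D was the highest in both. The log2 ratio was 0.42 in line D and -0.04 to 0.05 in lines A, C and E. Its log2FC of 0.15 (SE 0.17, edgeR adjusted p = 0.683) became -0.05 without the feeder-free library of line D.

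BCL2 lies on chromosome 24 from 61396513 to 61589028 and had the lowest counts of the 9 genes, 65 to 259 per library. It was at 4.27 CPM in line A, 3.94 in line C, 1.34 in line D and 3.90 in line E on MEF. In feeder-free conditions it was at 5.20 CPM in line A, 3.94 in line C, 1.96 in line D and 3.81 in line E. Line D was the lowest and line A the highest in both conditions, so the lines lay further apart than the conditions. The log2FC was 0.15 (SE 0.41, edgeR adjusted p = 0.884), and it turned to -0.12 without the MEF library of line D and to -0.06 when line A's feeder-free library was left out.

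**Figure D2:**
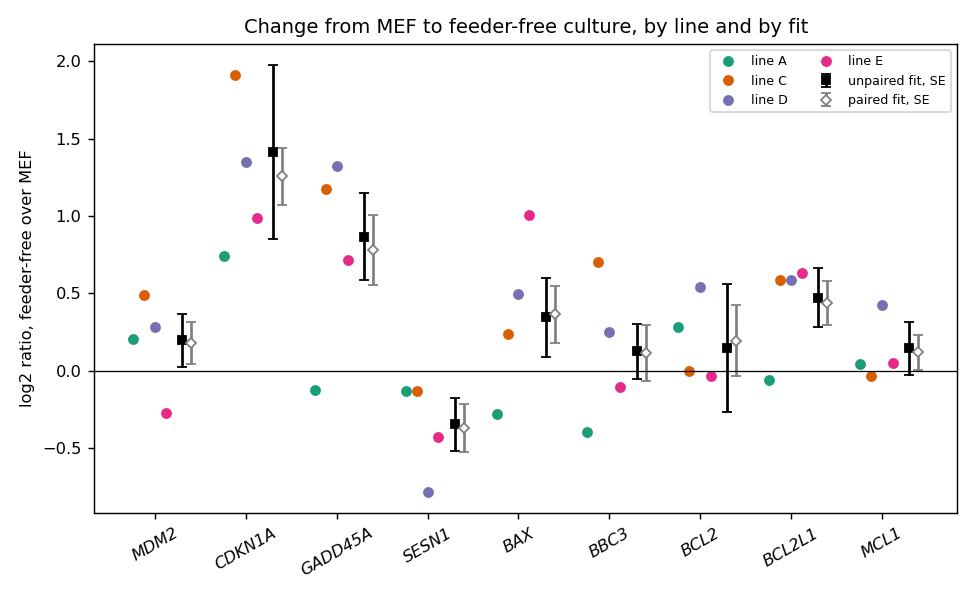
Log2 ratio of feeder-free over MEF for the 9 genes, with 1 coloured point per line and the fitted log2FC with its standard error without the pairing (square) and with line as a term (diamond). The standard error of CDKN1A was 0.56 without the pairing and 0.18 with it, and its 4 lines ran from 0.74 to 1.91.

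The lines differed in how far these genes moved. Line A had the lowest log2 ratio of the 4 lines for 5 of the 9 genes (CDKN1A, GADD45A, BAX, BBC3 and BCL2L1) and the highest for 0. The median log2 ratio over the 9 genes was -0.06 in line A, 0.49 in line C, 0.49 in line D and 0.05 in line E, where the median of all tested genes was within 0.01 of 0 in each line. With 1 culture per line and condition, the differences between lines could not be tested. For 4 of the 9 genes (CDKN1A, BCL2, BCL2L1 and MCL1) the lines ran in the same order in both conditions, which was the case for 11.2 percent of all tested genes. For CDKN1A and BCL2L1 this order was A, E, C and D from low to high, and for BCL2 it was D, E, C and A. The range of log2 CPM among lines was wider in feeder-free conditions for 7 of the 9 genes, against 49.3 percent of all tested genes. For GADD45A that range was 0.30 on MEF and 1.44 in feeder-free conditions, and for SESN1 it was 0.09 and 0.70.

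Ratios of counts within a library do not depend on scaling between libraries, and only their change is read here, since counts of different genes are not adjusted for length. The log2 ratio of BAX to BCL2L1 was 0.24 ± 0.44 (SD, n = 4 lines) on MEF and 0.17 ± 0.12 (SD, n = 4 lines) in feeder-free conditions. It was lower in lines A, C and D, by 0.22, 0.35 and 0.09 as MEF minus feeder-free, and higher by 0.38 in line E. BAX to MCL1 was -1.31 ± 0.49 (SD, n = 4 lines) on MEF and -1.06 ± 0.38 (SD, n = 4 lines) in feeder-free conditions. BBC3 to BCL2L1 was -1.23 ± 0.29 (SD, n = 4 lines) and -1.55 ± 0.25 (SD, n = 4 lines), lower in lines A, D and E. For all 3 ratios the conditions overlapped, and none moved in one direction in all 4 lines.

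Further genes of the pathway were taken from fixed lists: 85 tested genes besides the 9. Without the pairing, edgeR called 2 of the 85, CYCS as upregulated and PMAIP1 as downregulated, a share of 2.35 percent beside 1.73 percent of all tested genes. In the paired fit 11 of the 85 were upregulated and 5 downregulated, or 12.9 and 5.88 percent, beside 5.52 and 4.53 percent of all tested genes. The median log2FC of the 85 was 0.09.

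**Figure D3:**
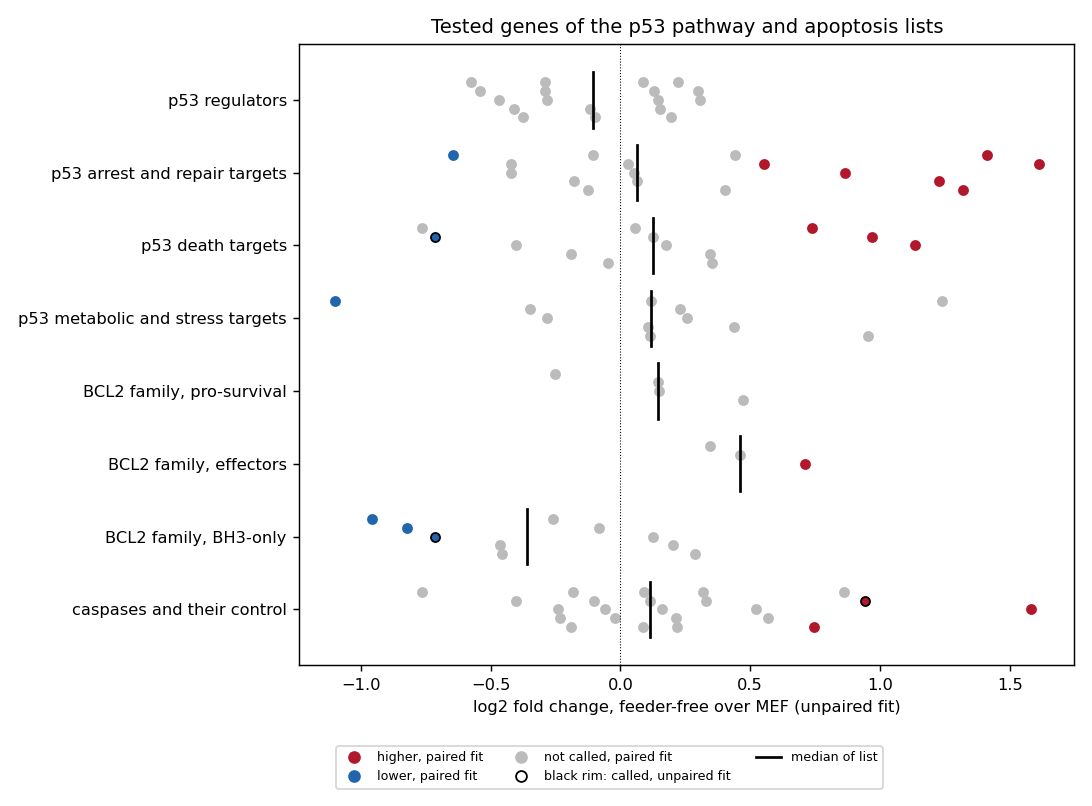
Log2FC (log2 fold change) of each tested gene, feeder-free over MEF without the pairing, for 8 lists of p53 pathway and apoptosis genes, in which members are included and a gene can stand in more than one list. Red and blue points were called higher or lower in the paired fit, a black rim marks a call without the pairing, and bars are list medians, which ran from -0.36 for the BH3-only genes to 0.46 for the effectors.

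CYCS encodes cytochrome c, which carries electrons in the respiratory chain and assembles the apoptosome once it leaves mitochondria. It was at 32.5, 37.9, 35.5 and 31.9 CPM in lines A, C, D and E on MEF. In feeder-free conditions it was at 65.0, 62.5, 68.3 and 68.7 CPM in the same lines. The groups were far apart, with a log2FC of 0.94 (SE 0.10, edgeR adjusted p = 0.0233) and a rise in 4 of 4 lines. CYCS has processed copies in mammalian genomes, so reads shared with a copy may have been lost or misplaced.

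PMAIP1 encodes NOXA, a BH3-only protein that binds MCL1 and is a death target of p53. It was at 88.0, 91.7, 116.7 and 106.3 CPM in lines A, C, D and E on MEF. In feeder-free conditions it was at 69.7, 54.4, 53.9 and 67.2 CPM. PMAIP1 was therefore lower in 4 of 4 lines without overlap, with a log2FC of -0.72 (SE 0.14, edgeR adjusted p = 0.0415). This direction was opposite to that of CDKN1A in every line. When any single library was left out, except that of line A in feeder-free culture, neither CYCS nor PMAIP1 was called in the unpaired fit.

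Of 17 arrest and repair targets, 6 were upregulated in the paired fit and 1 downregulated, or 35.3 and 5.88 percent beside 5.52 and 4.53 percent of all tested genes. Without the pairing 0 were called by edgeR, and 7 had an unadjusted P-value under 0.05, or 41.2 percent beside 21.6 percent. Besides CDKN1A and GADD45A the upregulated genes were PLK2, SFN, PHLDA3 and RPS27L. PLK2, a polo-like kinase, had a mean of 7.49 ± 2.94 CPM (SD, n = 4 lines) on MEF and 17.5 ± 7.81 CPM (SD, n = 4 lines) in feeder-free conditions, and its log2 ratio was 0.88 to 1.34 in the 4 lines. SFN, the 14-3-3 sigma protein of the G2 checkpoint, was higher in lines C, D and E and nearly equal in line A, with a log2 ratio of -0.03. PHLDA3, an inhibitor of AKT, stood apart in line D, at 70.0 CPM on MEF and 188.7 CPM in feeder-free conditions, against 6.29 to 10.7 and 10.2 to 24.2 CPM in the other lines. RPS27L, a p53-inducible ribosomal protein with near-identical relatives, was at 33.7 to 66.4 CPM on MEF and 67.7 to 77.4 CPM in feeder-free conditions. POLH, a polymerase for translesion synthesis, was the gene called lower, at 27.6 to 41.4 CPM on MEF and 19.3 to 23.4 CPM in feeder-free conditions. CCNG1, ZMAT3, XPC and RRM2B, which are also textbook targets of p53, had log2FC values of -0.42, -0.18, 0.05 and 0.03 and were not called in either fit. These last 4 were picked out once their values had been seen.

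Of 13 death targets, PERP, FAS and TNFRSF10D were upregulated in the paired fit and PMAIP1 downregulated, or 23.1 and 7.69 percent beside 5.52 and 4.53 percent of all tested genes. PERP, a membrane protein of desmosomes as well as a p53 target, was at 73.8 to 107.5 CPM on MEF and 131.4 to 207.0 CPM in feeder-free conditions, with a log2FC of 0.74 (SE 0.18, edgeR adjusted p = 0.0621). FAS, a death receptor, was at 1.03 to 2.73 CPM on MEF and 3.01 to 5.09 CPM in feeder-free conditions, and overlaps another annotated gene. TNFRSF10D, named as a TRAIL receptor, had a mean of 39.9 ± 13.0 CPM (SD, n = 4 lines) and 78.1 ± 32.7 CPM (SD, n = 4 lines). Its chromosome is given as unknown, so whether other genes overlap TNFRSF10D could not be judged. PERP and FAS, both higher, and PMAIP1, lower, did not overlap between the conditions. This was 23.1 percent of the 13, beside 14.6 percent of all tested genes.

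The 11 genes of stress metabolism held 1 called gene in the paired fit, which was lower, or 9.09 percent beside 4.53 percent of all tested genes. DDIT4, an inhibitor of mTORC1 that responds to hypoxia as well as to p53, had a mean of 1027 ± 398.3 CPM (SD, n = 4 lines) on MEF and 479.0 ± 170.1 CPM (SD, n = 4 lines) in feeder-free conditions. Its log2FC was -1.10 (SE 0.35, edgeR adjusted p = 0.113) and -1.11 in the paired fit (paired edgeR adjusted p = 0.00698). It was lower in 4 of 4 lines.

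The BCL2 family was not called as a whole in one direction. Of the 10 BH3-only genes, PMAIP1, BNIP3 and BNIP3L were downregulated in the paired fit and 0 were upregulated, or 30 and 0 percent beside 4.53 and 5.52 percent of all tested genes. The median log2FC of this list was -0.36. BNIP3 and BNIP3L are mitophagy receptors induced by hypoxia and by other cues. BNIP3 was at 227.2 to 421.4 CPM on MEF and 48.3 to 222.5 CPM in feeder-free conditions, the lowest value being that of line D. BNIP3L was at 308.3 to 451.3 CPM on MEF and 140.0 to 266.0 CPM in feeder-free conditions. Of the 3 effectors, BOK was upregulated in the paired fit, with log2 ratios of 0.17 to 1.20 in the 4 lines, while BAX and BAK1 were not called. BAK1 was higher in 4 of 4 lines at a log2FC of 0.46 (edgeR adjusted p = 0.23). Of the 4 protectors tested none was called in either fit, BCL2L1 having the smallest P-value, and BCL2L2 had a log2FC of -0.25.

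Among 23 caspases and their regulators, 3 were upregulated in the paired fit, CYCS and FADD among them, and 0 downregulated, or 13 and 0 percent beside 5.52 and 4.53 percent of all tested genes. One direction in all 4 lines was found for 14 of the 23, 10 higher and 4 lower, or 60.9 percent beside 40.9 percent. FADD, the adaptor of death receptors, had log2 ratios of 0.28 in line A, 0.25 in line C, 1.05 in line D and 1.23 in line E.

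Of 18 regulators of p53, 0 were called by edgeR in either fit, with 5 at an unadjusted P-value under 0.05 in the unpaired one, all lower, a share of 27.8 percent beside 21.6 percent of all tested genes in either direction. RFWD3, HIPK2 and CREBBP had the smallest P-values. Their log2FC values were -0.47, -0.54 and -0.41, short of the fold change threshold, and they had adjusted p of 0.0168, 0.0218 and 0.0329 from edgeR's test with the replicate block. RFWD3 is a ubiquitin ligase, HIPK2 a kinase that phosphorylates p53, and CREBBP an acetyltransferase. In 4 of the 18, these 3 and PPM1D, the conditions did not overlap, a share of 22.2 percent beside 14.6 percent of all tested genes.

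The tested genes with a profile closest to that of CDKN1A were sought among 9388 genes with a mean of at least 10 CPM, as the root mean square difference in centred log2 CPM over the 8 libraries. TEAD4 and NUAK2 were among the closest 3, at 0.217 and 0.257, where CDKN1A itself varied by 1.09 on that scale. TEAD4 was at 5.21 to 17.3 CPM on MEF and 9.37 to 43.9 CPM in feeder-free conditions, and NUAK2 at 15.9 to 36.9 and 17.4 to 126.1 CPM. Both were upregulated in the paired fit, as was CDKN1A, and this follows largely from matching them to it over these same libraries. Those closest to MDM2 were SNX24, CEP152 and PDP2, at 0.0802, 0.0873 and 0.096, where MDM2 varied by 0.248. None of these 3 was called in either fit, nor was MDM2, to which they were matched in the same way. None of the 5 genes named here is in the lists above.

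**Figure D4:**
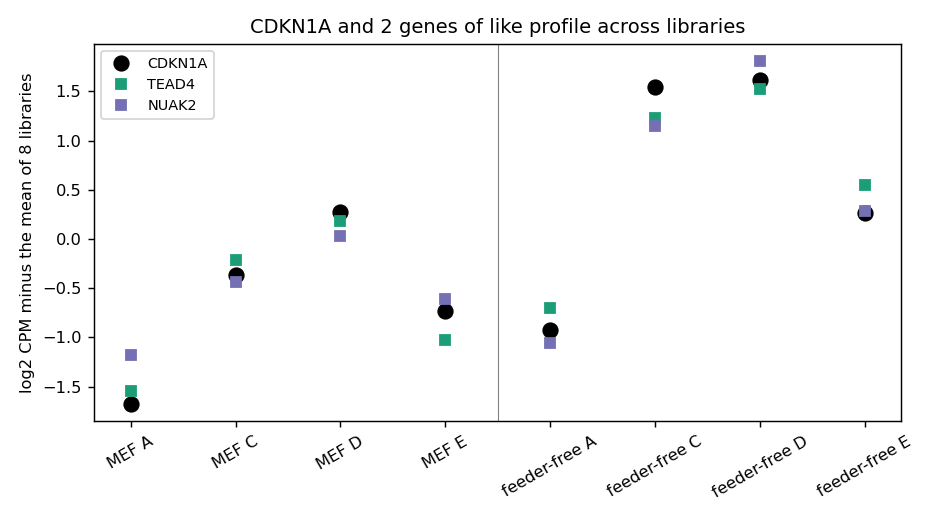
Log2 CPM of CDKN1A, TEAD4 and NUAK2 in each of the 8 libraries, each gene centred on its own mean over the libraries. Line A was the lowest of the 4 lines and line D the highest for all 3 genes in both conditions. TEAD4 and NUAK2 were chosen for profiles close to that of CDKN1A, so a like order follows largely from the choice.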

How the data were processed

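RNA of 8 libraries was analysed. The authors deposited raw counts per gene: per the methods and labels, Trimmomatic trimmed the reads, STAR placed them on ARS-UCD2.0, optical duplicates and poorly mapped reads were dropped, and featureCounts (Subread 1.6.2) counted them. The strand setting is not given in the sources used here. They also describe taking reads of a pure MEF sample out of the counts on MEF, which was not repeated here. Of 32640 genes listed, 3 without values were left out.

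Counts were tested with edgeR 4.0.16 in R 4.3.3 (glmQLFit, glmQLFTest) after filterByExpr and TMM, with condition as the only term and Benjamini-Hochberg adjusted p over 15744 genes. Log2 CPM used a prior count of 2, and standard errors came from the fold change and its F statistic. Total counts of at least 44268717 per library limit precision less than the spread among 4 lines. Each line stands in both conditions: the deviations of its libraries from the condition means correlated at 0.421 to 0.664, and those of different lines at -0.523 to 0.249, so a fit with line as a term was added. In 1 set of simulated counts with line effects, the share of false calls in the paired fit was above its threshold, and the unpaired fit missed most of the smaller changes put in. Alternatives were RLE scaling, no scaling, other filters, the likelihood ratio test, DESeq2 1.42.0, limma-voom 3.58.1, other fold thresholds, and each library left out. Named genes were the 9 members, every listed gene called in either fit, and otherwise the 3 smallest P-values of a list. Some genes that this rule names are not reported here. The members and lists were chosen with earlier results of these data known. Of the listed genes, BCL2A1 and BCL2L10 did not pass the filter and TNFRSF10A was not analysed. Coordinates are RefSeq gene spans. Exon lengths and sequences were not used here, so levels are not compared between genes.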

Additional observations from a re-analysis of the deposited data

Results flagged for a closer look

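Among 18 groups of 4 libraries (9 genes in both conditions), 1 had a library that stood apart from the rest, where chance gives about 0.9, or 1 in 20. BCL2 in the MEF library of line D was at 0.46 log2 CPM, against 1.98 to 2.11 in the other MEF libraries. Line D was also the lowest for BCL2 in feeder-free conditions, at 1.00 log2 CPM against 1.94 to 2.39.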

How the results depend on the processing

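The direction of CDKN1A, GADD45A, BCL2L1, BAX, BBC3, MDM2 and SESN1 was the same in the 16 alternatives to the unpaired fit computed for each. When a whole line was left out of the paired fit, BBC3 was at -0.07 without line C, and the other 6 of these genes kept their direction. With single libraries left out, BCL2 ranged from -0.12 (without the MEF library of line D) to 0.36, being -0.06 without line A's feeder-free library, and MCL1 from -0.047 (without line D's feeder-free library) to 0.23. The number of the 9 genes called higher was 0, and 2 under DESeq2 and with the replicate block. Leaving out single libraries gave 0 to 2, the 2 (GADD45A and BCL2L1) coming without line A's feeder-free library. In the paired fit, leaving out a line gave 1 to 3 called higher, 3 without line A and 1 without line C, D or E. Limma-voom and no scaling in the paired fit, settings added after the data were examined, kept CDKN1A and GADD45A and called no other. Of the 85 further genes, 1 was called higher and 1 lower. These counts were 3 and 4 under the likelihood ratio test, 7 and 4 under DESeq2, 11 and 5 with the replicate block, 0 and 0 at a fold change of at least 2, and 0 to 1 in each direction without single libraries. No scaling and no filter each gave 0 lower. Of all tested genes, 272 were called. This became 174 without scaling, 170 without a filter, 412 with at least 10 counts in every library, 837 under the likelihood ratio test, 1211 under DESeq2, 1582 with the replicate block and 118 at a fold change of at least 2. Without single libraries it was 0 to 490, the latter without line A's feeder-free library and at most 6 without any other. The cause was not tested, other than the stricter fold and the fewer samples, which are part of the construction. BCL2 had the fewest counts, 65 to 259 per library, and so the largest counting error of the 9 genes.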
